A study of Gallus gallus with 24 samples.

Results

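The 31 genes described here encode transcription factors of lipid synthesis, their sterol-dependent regulators, a sterol carrier, and enzymes that build cholesterol and long-chain fatty acids. They come from a list of 35 gene symbols, drawn up by pathway membership with earlier results of these data known. A gene was kept where the deposited table held its symbol, with a mean of at least 10 normalized read counts over the 24 libraries. All 31 genes with a row passed, among 15001 genes that passed in the whole table. The symbols IDI1, EBP, TM7SF2 and FADS1 were matched to no row and were not analysed here. Polyadenylated RNA had been sequenced from explants of the retinal pigment epithelium (RPE), the pigmented layer behind the retina, of chicken embryos at embryonic day 4. Control explants were kept in maintenance medium alone, and the other explants received dichloroacetate (DCA) at 20 mM, fibroblast growth factor 2 (FGF2) at 10 ng/ml, or both agents. Each of these 4 treatments was sampled at 24 h and at 48 h, with 3 biological replicates in each of the 8 groups, and 3 explants were pooled for each replicate. Chick RPE at this stage can turn into neural retina when exposed to FGF2, and DCA inhibits the pyruvate dehydrogenase kinases, which hold back the entry of pyruvate into mitochondrial oxidation.

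Cholesterol is made from acetyl-CoA through mevalonate and squalene, and long-chain fatty acids are made from the same precursor by a separate set of enzymes. Transcription of most of these enzymes is driven by the sterol regulatory element-binding proteins (SREBPs), which the SCAP protein escorts out of the endoplasmic reticulum when membrane sterol is low and which the INSIG proteins hold back when sterol is plentiful. In vertebrates the product of SREBF2 acts mainly on sterol genes and the product of SREBF1 mainly on fatty acid genes, and cells that grow and divide need both lipids for new membrane.

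Counted in units of 1000000 reads, the libraries held 32.8 to 72.7 (median 37.5), and the third FGF2 replicate was the deepest library at each time. All 10 pigment cell markers had a value above 0 in each group, and their summed level ran from 42776 to 226095 normalized counts over the libraries. The explants also held RNA of genes used as markers of other cells, and which cells made it was not tested. The summed level of 14 mesenchyme markers ran from 64238 to 388016, that of 9 blood and macrophage markers from 11281 to 101229, that of 9 endothelial markers from 8084 to 53754, and that of 9 lens and surface ectoderm markers from 467 to 1725. Of the mesenchyme markers TCF21 was at 0 in all 3 FGF2 libraries at 48 h, and of the lens and surface ectoderm markers KRT5 was at 0 in every library. A lower level in such bulk samples can come from fewer cells of a type or from less RNA per cell, and these cannot be told apart. Within a group the members often shared the same high library: the first control library at 24 h was the highest of its group for 22 of the 31 genes, the second DCA library at 24 h for 25, the first FGF2 library at 24 h for 24, and the third library with both agents at 24 h for 25. The same libraries were the highest of their group for 35.9%, 31.5%, 34.8% and 33.1% of all genes. At 48 h the first library was the highest for 17 members with DCA, 20 with FGF2 and 22 with both agents. In control medium at 48 h the second library was the highest for 16. The shares of all genes were not counted for these 48 h libraries.

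FGF2 raised most genes of both pathways at both times, and all the squalene and post-squalene enzymes measured were among the genes raised. At 24 h 26 of the 31 genes rose against control and 1 fell, where 15.5% of all genes tested rose and 14.3% fell. The median log2 difference of the members was 0.56, against -0.01 over all genes tested. At 48 h 29 rose and 1 fell, where 26.9% of all genes rose and 27.7% fell, and the median was 1.54 against -0.02. Of the members, 19 rose by at least 2-fold at 48 h, and the share of all genes at that cut was not counted. A gene is said to have risen or fallen where its adjusted p in the limma model was under 0.05, and each log2 difference is given with the SE of that model.

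Among the SREBP genes, SREBF2 (ENSGALG00000041687) stood at 9039, 8857 and 7247 normalized counts in the control libraries and at 13112, 13059 and 13649 with FGF2 at 24 h. At 48 h its control libraries held 5957, 6304 and 6339, and its FGF2 libraries held 15836, 14543 and 14789. The FGF2 libraries lay above every control library at both times, a log2 difference of 0.67 ± 0.06 (adjusted p = 6.87e-08) at 24 h and 1.28 ± 0.06 (adjusted p = 1.17e-12) at 48 h. SREBF1 (ENSGALG00000027188) was at 9554, 8946 and 8093 in control and 10759, 12097 and 10772 with FGF2 at 24 h, and at 6420, 7053 and 6787 against 10284, 9962 and 9691 at 48 h. The groups were again separate, but the differences were smaller, at 0.34 ± 0.07 (adjusted p = 0.00128) and 0.56 ± 0.07 (adjusted p = 1.41e-06).

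The INSIG pair, whose proteins retain SREBP precursors in the endoplasmic reticulum, did not move alike. INSIG1 (ENSGALG00000017394) held 5005, 3640 and 3838 in control and 8480, 7109 and 7032 with FGF2 at 24 h, and 2869, 3251 and 2647 against 10390, 9471 and 9885 at 48 h. Its FGF2 libraries were the higher ones at both times, by 0.87 ± 0.15 (adjusted p = 0.000123) and 1.77 ± 0.15 (adjusted p = 2.38e-09) on the log2 scale. INSIG2 (ENSGALG00000028046) held 2407, 2410 and 2366 in control and 3659, 3425 and 3511 with FGF2 at 24 h, a rise of 0.56 ± 0.06 (adjusted p = 4.84e-07). At 48 h it held 2857, 2650 and 2749 in control and 2839, 3010 and 2879 with FGF2, where the groups overlapped and the difference was 0.08 ± 0.06 (adjusted p = 0.288). SCAP (ENSGALG00000035768), the escort, was at 4825, 4729 and 5134 in control and 4562, 4377 and 4325 with FGF2 at 48 h. It was the 1 member that fell then, by 0.15 ± 0.05 on the log2 scale (adjusted p = 0.028), and the call was lost without the third control library (adjusted p = 0.132), the second FGF2 library (0.0721) or the third FGF2 library (0.0893).

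Of 6 early mevalonate enzymes, 5 rose at 24 h and all 6 at 48 h, with medians of 0.48 and 1.39. Of all genes 15.5% and 26.9% rose. HMGCS1 (ENSGALG00000014862), which makes HMG-CoA, was at 3645, 3301 and 2621 in control and 6730, 5659 and 5744 with FGF2 at 24 h, and at 2342, 2499 and 2343 against 8268, 7442 and 8058 at 48 h. The groups were separate at both times, by 0.93 ± 0.12 (adjusted p = 2.41e-06) and 1.73 ± 0.12 (adjusted p = 7.06e-11). FDPS (ENSGALG00000028880), which makes farnesyl diphosphate, held 5349, 4563 and 4115 in control and 7397, 5771 and 5868 with FGF2 at 24 h, and 2524, 2906 and 3044 against 10384, 10089 and 10720 at 48 h. Its separation was narrow at 24 h (0.44 ± 0.13, adjusted p = 0.0122) and wide at 48 h (1.88 ± 0.13, adjusted p = 8.65e-11). The 24 h call for FDPS was lost without the third control library (adjusted p = 0.0755) or the first FGF2 library (0.0943). MVK (ENSGALG00000013848), mevalonate kinase, rose by 0.22 ± 0.07 at 24 h (adjusted p = 0.0212), a call lost without the second control library (adjusted p = 0.115) or the first FGF2 library (0.129). MVD (ENSGALG00000007267), diphosphomevalonate decarboxylase, held 2317, 1838 and 1682 in control and 2913, 2741 and 2704 with FGF2 at 24 h, and its groups were separate (0.53 ± 0.12, adjusted p = 0.00126). At 48 h it held 1485, 1389 and 1369 against 4458, 4009 and 3911. PMVK (ENSGALG00000046656), phosphomevalonate kinase, was at 1253, 1080 and 1114 in control and 1218, 1223 and 1212 with FGF2, within the control range. It had a difference of 0.09 ± 0.12 at 24 h (adjusted p = 0.641).

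All 10 squalene and post-squalene enzymes rose at both times, with medians of 0.73 and 1.92, where 15.5% and 26.9% of all genes rose. SQLE (ENSGALG00000036915), squalene epoxidase, held 2990, 2418 and 2168 in control and 6369, 5301 and 5127 with FGF2 at 24 h, a log2 difference of 1.15 ± 0.13 (adjusted p = 4.65e-07). At 48 h it held 1662, 1890 and 1788 in control against 10239, 9349 and 8931 with FGF2. FDFT1 (ENSGALG00000016665), squalene synthase, showed the largest difference of the 31 genes at 48 h. Its control libraries held 1842, 2418 and 2125 and its FGF2 libraries 14994, 14013 and 14364, which is 2.77 ± 0.16 on the log2 scale (adjusted p = 1.05e-11). At 24 h it had held 4043, 3064 and 2749 against 8790, 7929 and 6972 (1.28 ± 0.16, adjusted p = 3.29e-06). LBR (ENSGALG00000009305), a protein of the inner nuclear membrane that also carries sterol reductase activity, was at 3353, 3431 and 3614 in control and 5665, 4862 and 4593 with FGF2 at 24 h. At 48 h its control libraries held 3504, 3513 and 3073 and its FGF2 libraries 11955, 10605 and 11208. The smallest adjusted p of all members at 48 h belonged to this gene (1.74 ± 0.09, adjusted p = 1.03e-12). LSS (ENSGALG00000006198), lanosterol synthase, held 4573, 3499 and 3311 in control and 6530, 5929 and 6082 with FGF2 at 24 h, and 2283, 2324 and 2632 against 9838, 9188 and 9333 at 48 h, where the difference was 1.97 ± 0.10 (adjusted p = 1.58e-12). The demethylation enzymes CYP51A1 (ENSGALG00000009365) and NSDHL (ENSGALG00000007493) and the final reductase DHCR7 (ENSGALG00000004106) were low in all control libraries at 48 h and high in all FGF2 libraries. CYP51A1 held 2912, 3233 and 3084 against 14386, 14710 and 14937, NSDHL held 668, 569 and 624 against 3476, 3398 and 3700, and DHCR7 held 1986, 2080 and 1827 against 7755, 6895 and 6852. These are log2 differences of 2.26 ± 0.12, 2.51 ± 0.15 and 1.87 ± 0.11.

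STARD4 (ENSGALG00000000241), a carrier that moves sterol between membranes, held 2031, 1182 and 1635 in control and 2648, 2438 and 2915 with FGF2 at 24 h, and 981, 1293 and 1011 against 4213, 2936 and 3798 at 48 h. The groups did not overlap, and it rose by 0.75 ± 0.20 (adjusted p = 0.006) and 1.73 ± 0.20 (adjusted p = 2e-07), and its 24 h call was lost without the second control library (adjusted p = 0.055).

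Of the 9 genes for acetyl-CoA supply and fatty acids, 6 were higher and 1 lower at 24 h, and all 9 rose at 48 h. Of all genes 15.5% rose and 14.3% fell at 24 h, and 26.9% rose at 48 h. The 1 that fell at 24 h is not above the share of all genes. SCD (ENSGALG00000005739), the desaturase that makes monounsaturated fatty acids, held 4806, 3323 and 3263 in control and 11266, 9993 and 9387 with FGF2 at 24 h, and 2465, 2781 and 2659 against 17696, 15837 and 17352 at 48 h. Every FGF2 library was above every control library, by 1.45 ± 0.14 (adjusted p = 5.18e-08) and 2.69 ± 0.14 (adjusted p = 1.32e-12) on the log2 scale. FASN (ENSGALG00000040896), fatty acid synthase, was at 15541, 15315 and 13377 in control and 24104, 22293 and 22774 with FGF2 at 24 h, and at 12294, 12071 and 12142 against 26059, 25321 and 26693 at 48 h, which is 0.65 ± 0.07 (adjusted p = 2.31e-07) and 1.10 ± 0.07 (adjusted p = 1.91e-11). AACS (ENSGALG00000002899), which turns acetoacetate into a lipid precursor, was the 1 member that fell at 24 h. Its control libraries held 7463, 6955 and 6314 and its FGF2 libraries 5056, 4669 and 3993, a fall of 0.60 ± 0.12 (adjusted p = 0.000491). At 48 h the order was turned, with 3557, 3700 and 4075 in control and 5242, 4886 and 6032 with FGF2 (0.51 ± 0.12, adjusted p = 0.000999). ACLY (ENSGALG00000003475), which releases acetyl-CoA from citrate, rose by 0.18 ± 0.07 at 24 h (adjusted p = 0.0451), and at 48 h it held 9301, 10006 and 8637 in control against 17508, 17275 and 17239 with FGF2. The 24 h call was lost on leaving out any 1 of 4 libraries (adjusted p from 0.0655 to 0.192).

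**Figure D1:**
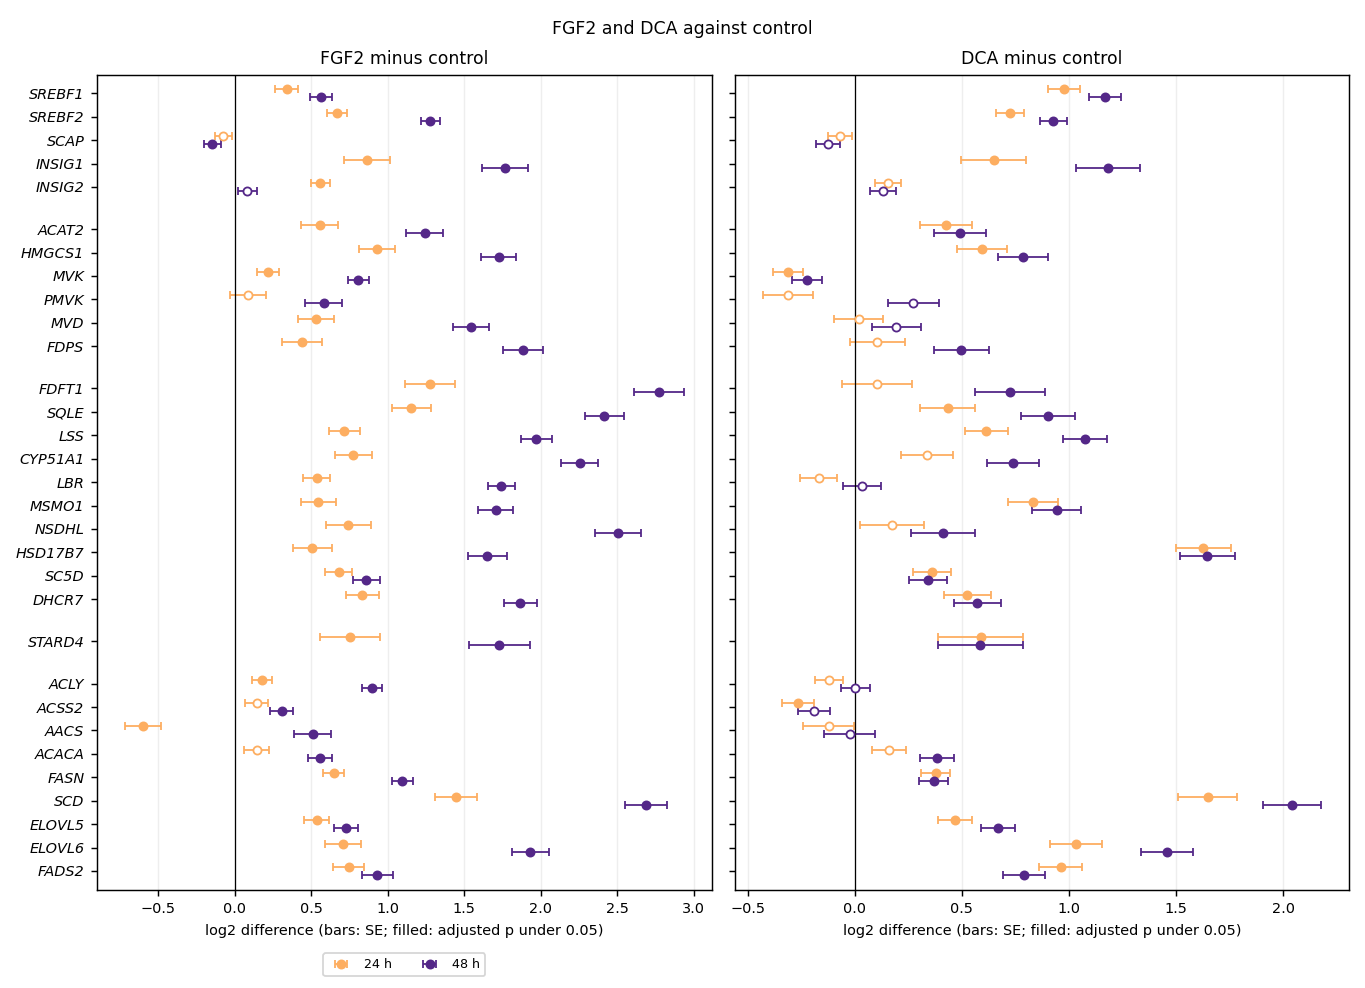
Log2 difference of each of the 31 genes from control, with FGF2 (left) and with DCA (right), at 24 h (orange) and 48 h (purple); bars are the SE of the model and filled points passed the adjusted p threshold of 0.05. With FGF2 the 48 h points lie to the right of the 24 h points for most genes and reach 2.77 for FDFT1, and with DCA they reach 2.04 for SCD.

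The signed log2 effect of FGF2 was higher at 48 h than at 24 h for 24 members and lower for 1 (INSIG2, -0.48 ± 0.09, adjusted p = 0.000285), where it was higher for 14.7% and lower for 15.4% of all genes. The 24 include AACS, whose effect turned from a fall to a rise. NSDHL had the largest change of effect, at 1.76 ± 0.21 (adjusted p = 3.22e-06), and FDFT1, CYP51A1 and FDPS followed at 1.49 ± 0.23, 1.48 ± 0.17 and 1.44 ± 0.18. SREBF1, with 0.22 ± 0.11 (adjusted p = 0.116), was not among them. The call for PMVK was lost on leaving out any 1 of 5 libraries (adjusted p from 0.0501 to 0.101), and that for ACACA (ENSGALG00000005439), acetyl-CoA carboxylase, without both deepest libraries together (adjusted p = 0.0542). These differences use the control libraries of both times, and both arms moved. With FGF2, 23 members had all 3 libraries at 48 h above all 3 at 24 h and 4 had them below (SREBF1, SCAP, INSIG2 and FADS2), where 28.0% of all genes had them above and 24.5% below. In control medium 3 members had them above and 25 below, against 19.8% and 16.9% of all genes.

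Tested directly, 22 members fell and 2 rose in control explants between 24 h and 48 h, where 7.30% of all genes fell and 9.69% rose, with a median of -0.43 against 0.01 over all genes. AACS had the largest fall (-0.87 ± 0.12, adjusted p = 3.31e-05), followed by NSDHL (-0.80 ± 0.15, adjusted p = 0.000743), ELOVL6 (ENSGALG00000054319), a fatty acid elongase (-0.79 ± 0.12, adjusted p = 9.33e-05), and HSD17B7 (ENSGALG00000037852), a sterol ketone reductase (-0.75 ± 0.13, adjusted p = 0.000324). SREBF2 fell by 0.43 ± 0.06 (adjusted p = 9.17e-05) and SREBF1 by 0.39 ± 0.07 (adjusted p = 0.000935). The 2 that rose were INSIG2 (0.20 ± 0.06, adjusted p = 0.0285) and ACSS2 (ENSGALG00000003362), which makes acetyl-CoA from acetate (0.23 ± 0.07, adjusted p = 0.0388). Both of these calls were lost on leaving out any 1 of 5 libraries, with adjusted p from 0.061 to 0.118 for INSIG2 and from 0.0665 to 0.171 for ACSS2. Without the first control library at 24 h, the one that was highest for 22 members, 14 fell and 0 rose. The summed mesenchyme markers of these control libraries went from a median of 162950 at 24 h to 335560 at 48 h. Markers with the highest counts weigh most in such a sum, so it does not tell how many of the 14 rose. The part of mesenchyme in the fall of the members was not tested.

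DCA without FGF2 raised SREBP genes, sterol enzymes and fatty acid genes, with the largest log2 differences in SCD, HSD17B7 and ELOVL6 at 24 h and at 48 h. At 24 h 17 members rose and 2 fell against control, where 10.6% of all genes rose and 9.48% fell, and the median was 0.38 against -0.01. At 48 h 22 rose and 1 fell, where 16.9% of all genes rose and 17.1% fell, and the median was 0.57 against -0.03. The 17 that rose at 24 h were all among the 22 at 48 h.

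SREBF1 had the smallest p of the members at both times. Its DCA libraries held 16285, 17808 and 18163 at 24 h and 14935, 16777 and 13920 at 48 h, each above all control libraries of its time. The log2 differences were 0.98 ± 0.07 (adjusted p = 3.42e-08) and 1.17 ± 0.07 (adjusted p = 9.65e-10). FGF2, set against the same control libraries, had given 0.34 and 0.56. SREBF2 held 13413, 14009 and 13971 with DCA at 24 h and 12001, 11859 and 11498 at 48 h, above control by 0.73 ± 0.06 (adjusted p = 1.97e-07) and 0.93 ± 0.06 (adjusted p = 3.15e-09). INSIG1 was at 5553, 8166 and 5940 and then at 7401, 6339 and 6167, which is 0.65 ± 0.15 (adjusted p = 0.00409) and 1.18 ± 0.15 (adjusted p = 5e-06). INSIG2 held 2633, 2848 and 2522 and then 2955, 3087 and 2998, and did not pass at 24 h (0.15 ± 0.06, adjusted p = 0.0848) or 48 h (0.13 ± 0.06, adjusted p = 0.108). SCAP, at -0.07 ± 0.05 and -0.13 ± 0.05, did not pass either (adjusted p = 0.415 and 0.0832).

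Of 6 early mevalonate enzymes 2 were higher and 1 lower at 24 h, and 3 were higher and 1 lower at 48 h. The shares of all genes were 10.6% higher and 9.48% lower at 24 h, and 16.9% and 17.1% at 48 h. With only 6 genes, the 1 that fell at each time cannot be told from these shares. HMGCS1 held 5037, 5404 and 4000 with DCA at 24 h and 4308, 4194 and 3875 at 48 h, all above control, by 0.60 ± 0.12 (adjusted p = 0.00103) and 0.78 ± 0.12 (adjusted p = 2.86e-05). ACAT2 (ENSGALG00000011659), an acetyl-CoA acetyltransferase, held 2852, 2764 and 2810 in control and 3631, 4425 and 3840 with DCA at 48 h, a rise of 0.49 ± 0.12 (adjusted p = 0.00353). At 24 h its rise of 0.43 ± 0.12 (adjusted p = 0.0163) was lost without the third control library (adjusted p = 0.112) or the second DCA library (0.0901). FDPS held 4311, 5406 and 5366 with DCA at 24 h, which overlapped its control, and 4096, 4061 and 3780 at 48 h, which lay above it. MVD, at 1859, 1931 and 2070 and then 1452, 1598 and 1823, passed at neither time. MVK went the other way. Its control libraries held 3294, 3014 and 3354 at 24 h and 2269, 2596 and 2593 at 48 h, and its DCA libraries 2455, 2696 and 2622 and then 2154, 2082 and 2140. It fell by 0.31 ± 0.07 (adjusted p = 0.00289) and 0.22 ± 0.07 (adjusted p = 0.0168), and the 48 h call was lost without the second control library (adjusted p = 0.0745) or the third (0.0738).

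Of the 10 squalene and post-squalene enzymes 6 rose at 24 h and 9 at 48 h, and none fell. Of all genes 10.6% rose at 24 h and 16.9% at 48 h. HSD17B7 held 1761, 1427 and 1226 in control and 5146, 4219 and 4177 with DCA at 24 h, and 811, 887 and 891 against 3204, 2560 and 2392 at 48 h. The gap between the groups was of a size only SCD matched among the members, at 1.63 ± 0.13 (adjusted p = 5.03e-08) and 1.64 ± 0.13 (adjusted p = 1.19e-08). MSMO1 (ENSGALG00000009560), the methylsterol oxidase of the same demethylation steps, held 4056, 3693 and 3269 in control and 6355, 7399 and 5885 with DCA at 24 h, a rise of 0.83 ± 0.12 (adjusted p = 3.78e-05). LSS held 5451, 6045 and 5773 with DCA at 24 h and 5571, 5040 and 4642 at 48 h, above its control at 48 h by 1.07 ± 0.10 (adjusted p = 1.28e-07). SQLE was at 2999, 3877 and 3319 with DCA at 24 h, where its lowest library was just above the highest control library, and the rise of 0.43 ± 0.13 (adjusted p = 0.0194) was lost without the second control (adjusted p = 0.0615), the third control (0.111) or the second DCA library (0.103). At 48 h it held 3422, 3521 and 3044, a rise of 0.90 ± 0.13 (adjusted p = 1.62e-05). FDFT1, which had the largest response to FGF2 at 48 h, held 3239, 4210 and 3084 with DCA at 24 h, within the range of its control libraries but for 1 library (0.10 ± 0.16, adjusted p = 0.723), and rose by 0.72 ± 0.16 at 48 h (adjusted p = 0.00174), at 3659, 3458 and 3374. LBR was at 2984, 3194 and 3075 and then at 3431, 3396 and 3483 with DCA and passed at neither time (-0.17 ± 0.09 and 0.03 ± 0.09, adjusted p = 0.19 and 0.801). NSDHL rose by 0.41 ± 0.15 at 48 h (adjusted p = 0.0383), a call that leaving out any 1 of 4 libraries ended (adjusted p from 0.0627 to 0.19). STARD4 held 1838, 2999 and 2421 with DCA at 24 h, which overlapped its control, and 1936, 1419 and 1583 at 48 h, which lay above it. It rose by 0.59 ± 0.20 at each time (adjusted p = 0.0407 and 0.0272), and leaving out any 1 of 4 libraries at 24 h or of 3 at 48 h ended the call (adjusted p up to 0.224 and 0.125).

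Among the fatty acid genes the desaturases and the elongase ELOVL6 moved most. SCD held 10558, 13141 and 11540 with DCA at 24 h and 12200, 11584 and 9018 at 48 h, each library more than the highest control library of its time, by 1.65 ± 0.14 (adjusted p = 9.36e-08) and 2.04 ± 0.14 (adjusted p = 1.77e-09). FADS2 (ENSGALG00000007178), the desaturase of polyunsaturated fatty acids, held 12158, 12751 and 11334 in control and 23506, 24153 and 22799 with DCA at 24 h, a rise of 0.96 ± 0.10 (adjusted p = 1.61e-06). ELOVL6 held 553, 552 and 516 in control and 1100, 1068 and 1149 with DCA at 24 h, and 314, 372 and 257 against 932, 921 and 729 at 48 h, where it showed a rise of 1.46 ± 0.12 (adjusted p = 2.15e-08). The bulk synthesis enzyme FASN moved less than these. It held 19486, 20581 and 17439 with DCA at 24 h and 16008, 16139 and 15002 at 48 h, above control by 0.38 ± 0.07 (adjusted p = 0.000471) and 0.37 ± 0.07 (adjusted p = 0.00027). ACSS2 held 1496, 1625 and 1669 in control and 1241, 1348 and 1399 with DCA at 24 h and fell by 0.26 ± 0.07 (adjusted p = 0.0142), a call lost without the third control (adjusted p = 0.0644) or the first DCA library (0.0809). ACLY, at -0.12 ± 0.07 and 0.00 ± 0.07, passed at neither time (adjusted p = 0.219 and 0.983). Between the 2 times the effect of DCA differed for 1 member, where the signed effect was higher at 48 h for 2.67% and lower for 2.24% of all genes. A count of 1 member is near these shares. That member was PMVK, at 877, 964 and 932 with DCA at 24 h and 959, 1075 and 923 at 48 h, against 686, 912 and 861 in control at 48 h. At 24 h its DCA libraries lay below control and at 48 h above it, with neither difference past the threshold on its own (adjusted p = 0.068 and 0.0805). The effect differed by 0.58 ± 0.17 (adjusted p = 0.0461), and the call was lost on leaving out any 1 of 10 libraries (adjusted p from 0.0542 to 0.129).

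Added to FGF2, DCA raised most members further at 24 h, and at 48 h 9 were higher and 14 lower than with FGF2 alone. Above FGF2 alone at 48 h were SREBF1, SREBF2, INSIG1, INSIG2, SCD, FADS2, ELOVL5 and the sterol enzymes HSD17B7 and MSMO1. Below it were 10 of 16 sterol enzymes, STARD4, ACLY, ACSS2 and AACS. At 24 h 20 members rose and 4 fell against FGF2 alone, where 18.1% of all genes rose and 17.8% fell, and the median was 0.46 against -0.02. At 48 h 9 rose and 14 fell, where 25.4% of all genes rose and 27.4% fell, and the median was -0.15 against -0.04. The 9 that rose are near the 25.4% of all genes, and the 14 that fell are above the 27.4%. By level, explants with both agents held the highest mean of the 4 treatments for 24 members at 24 h and for 12 at 48 h, against 25.6% and 22.8% of all genes. Explants with FGF2 alone held it for 5 members at 24 h and for 18 at 48 h, against 27.0% and 32.4% of all genes. For 14 of those 18 all 3 FGF2 libraries lay above all 9 others of that time, as they did for 17.7% of all genes. The 14 included HMGCS1, MVK, MVD, FDPS, FDFT1, SQLE, CYP51A1, LBR, NSDHL and DHCR7.

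**Figure D2:**
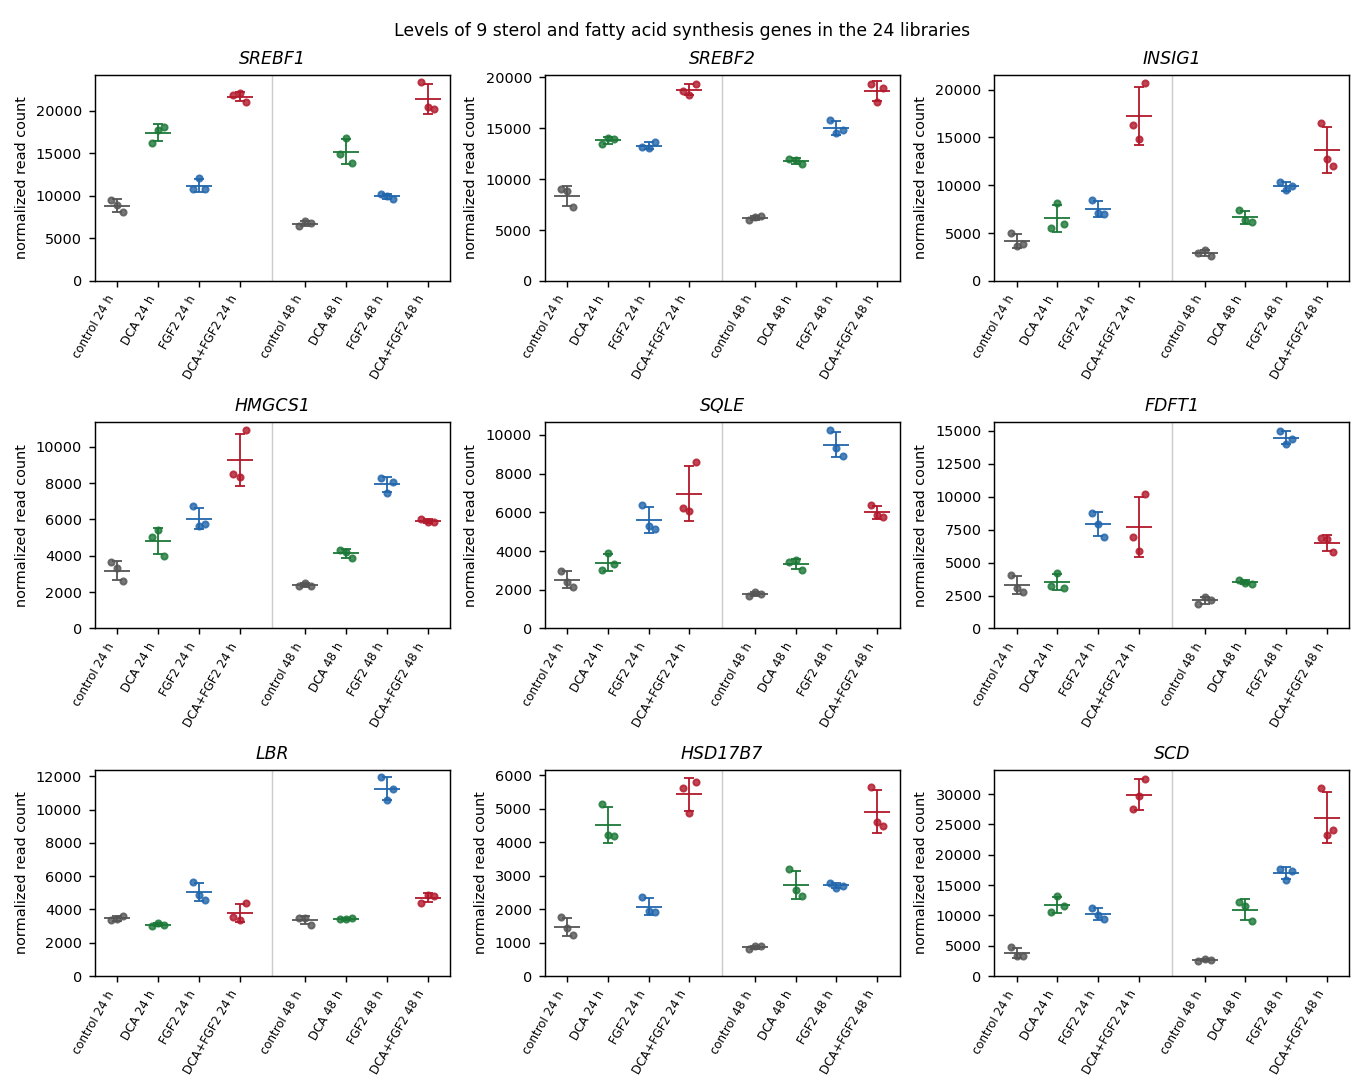
Normalized read counts of 9 genes in the 24 libraries (points), with the mean and SD of each group of 3 (bars), for control (grey), DCA (green), FGF2 (blue) and both agents (red) at 24 h and 48 h. SREBF1, SREBF2, INSIG1, HSD17B7 and SCD are highest with both agents at 48 h, whereas HMGCS1, SQLE, FDFT1 and LBR are highest with FGF2 alone.

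SREBF1 held 21922, 22128 and 21039 with both agents at 24 h and 23435, 20506 and 20245 at 48 h. These 6 libraries lay above all others of their time, and above FGF2 alone by 0.95 ± 0.07 (adjusted p = 1.18e-08) and 1.10 ± 0.07 (adjusted p = 1.12e-10). SREBF2 held 18674, 18262 and 19357 and then 19371, 17522 and 18944, also the highest of each time. Its margin over FGF2 alone was 0.50 ± 0.06 (adjusted p = 4.89e-06) at 24 h and 0.31 ± 0.06 (adjusted p = 0.000407) at 48 h. INSIG1 reached 16311, 14820 and 20677 at 24 h (1.19 ± 0.15, adjusted p = 4.04e-06) and 16487, 12716 and 12017 at 48 h (0.46 ± 0.15, adjusted p = 0.0143), and the latter call was lost without the first library with both agents (adjusted p = 0.105). INSIG2 was at 3816, 3200 and 3678 at 24 h, which overlapped FGF2 alone (0.01 ± 0.06, adjusted p = 0.92), and at 3417, 3609 and 3532 at 48 h, which was above it (0.27 ± 0.06, adjusted p = 0.000778). SCAP held 4146, 4562 and 4120 with both agents and 4783, 4869 and 4600 with FGF2 alone at 24 h, a fall of 0.15 ± 0.05 (adjusted p = 0.0336) that leaving out any 1 of 4 libraries ended (adjusted p from 0.0835 to 0.119).

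The early mevalonate enzymes turned between the times, from 4 higher and 1 lower at 24 h to 0 higher and 4 lower at 48 h. The shares of all genes were 18.1% higher and 17.8% lower at 24 h, and 25.4% and 27.4% at 48 h. The 1 that fell at 24 h is near the share of all genes. HMGCS1 held 8525, 8335 and 10924 with both agents at 24 h, above FGF2 alone by 0.61 ± 0.12 (adjusted p = 0.000347), and 6046, 5881 and 5834 at 48 h, below it by a log2 difference of -0.42 ± 0.12 (adjusted p = 0.00453). FDPS likewise went from 7501, 8239 and 10594 at 24 h (0.46 ± 0.13, adjusted p = 0.00791, and 0.0635 without the third of these libraries) to 6315, 7172 and 5446 at 48 h (-0.73 ± 0.13, adjusted p = 6.32e-05). MVK held 4022, 3664 and 3548 with FGF2 alone and 2762, 2636 and 3017 with both agents at 24 h, and 4494, 4354 and 4181 against 2749, 2912 and 2633 at 48 h. It was lower with both agents at each time (-0.42 ± 0.07, adjusted p = 8.59e-05, and -0.65 ± 0.07, adjusted p = 8.52e-08), as it was with DCA alone. MVD, with 3586, 2826 and 4007 and then 3176, 3254 and 2830, rose by 0.30 ± 0.12 at 24 h (adjusted p = 0.046), a call lost on leaving out any 1 of 5 libraries (adjusted p from 0.0619 to 0.237), and fell by 0.42 ± 0.12 at 48 h (adjusted p = 0.00447).

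Squalene and post-squalene enzymes were 5 higher and 1 lower at 24 h, and 2 higher and 6 lower at 48 h. Of all genes 18.1% were higher at 24 h and 27.4% lower at 48 h. The 1 lower at 24 h and the 2 higher at 48 h are not above the shares of all genes, 17.8% and 25.4%. LBR held 3565, 3367 and 4401 with both agents at 24 h and 4393, 4889 and 4820 at 48 h. All 6 libraries lay below FGF2 alone, with log2 differences of -0.42 ± 0.09 (adjusted p = 0.000753) and -1.26 ± 0.09 (adjusted p = 1.51e-10). FDFT1 spread widely at 24 h, at 6944, 5844 and 10225, across the FGF2 libraries at 8790, 7929 and 6972 (-0.08 ± 0.16, adjusted p = 0.753). At 48 h its libraries with both agents held 6849, 6788 and 5793, all below FGF2 alone (-1.16 ± 0.16, adjusted p = 3.91e-06) and all above control. SQLE showed the same order at 48 h, at 6367, 5862 and 5776 (-0.66 ± 0.13, adjusted p = 0.000156), after 6224, 6069 and 8590 at 24 h (0.30 ± 0.13, adjusted p = 0.0691). The 2 that stayed higher at 48 h were HSD17B7 and MSMO1. HSD17B7 held 2365, 1950 and 1915 with FGF2 alone and 5615, 4876 and 5799 with both agents at 24 h (1.39 ± 0.13, adjusted p = 9.59e-08), and 2788, 2647 and 2696 against 5667, 4606 and 4476 at 48 h (0.85 ± 0.13, adjusted p = 9.58e-06). MSMO1 held 6021, 4881 and 5185 against 11631, 10675 and 13990 at 24 h (1.17 ± 0.12, adjusted p = 2.18e-07), and 8239, 8486 and 8372 against 11028, 9601 and 10806 at 48 h (0.32 ± 0.12, adjusted p = 0.0234). The 48 h call for MSMO1 was lost on leaving out any 1 of 4 libraries (adjusted p from 0.051 to 0.0817). STARD4 held 4330, 4471 and 4879 with both agents at 24 h, all above FGF2 alone, and 3067, 1908 and 2224 at 48 h, where 1 library overlapped it. It was higher at 24 h (0.78 ± 0.20, adjusted p = 0.0044) and lower at 48 h (-0.62 ± 0.20, adjusted p = 0.0128), and the 48 h call was lost without the first FGF2 (adjusted p = 0.0672) or the second library with both agents (0.08).

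Of the fatty acid genes 7 were higher and 1 lower at 24 h, and 3 were higher and 3 lower at 48 h. At 24 h 18.1% of all genes were higher and 17.8% lower, and the 1 lower is not above that share. The 48 h counts are near the 25.4% higher and 27.4% lower of all genes. SCD reached 27548, 29638 and 32524 with both agents at 24 h (1.55 ± 0.14, adjusted p = 4.98e-08) and 30937, 23324 and 24111 at 48 h (0.61 ± 0.14, adjusted p = 0.000685), its highest values in the study. ELOVL6 went from 807, 926 and 921 with FGF2 alone to 1971, 1758 and 2107 with both agents at 24 h (1.14 ± 0.12, adjusted p = 4.66e-07). At 48 h its groups overlapped, at 1300, 1112 and 1163 against 1369, 1240 and 1447 (0.18 ± 0.12, adjusted p = 0.213). ELOVL5 (ENSGALG00000016314), an elongase of polyunsaturated fatty acids, was separate at both times. It held 8346, 8961 and 8915 with FGF2 alone and 14465, 11636 and 12300 with both agents at 48 h (0.54 ± 0.08, adjusted p = 6.55e-06). FASN held 31622, 30422 and 31851 at 24 h, above FGF2 alone (0.44 ± 0.07, adjusted p = 3.52e-05), and 27444, 23836 and 23122 at 48 h, across its range (-0.07 ± 0.07, adjusted p = 0.385). The 3 that fell at 48 h were AACS, ACSS2 and ACLY. AACS held 3221, 3314 and 2985 with both agents (-0.76 ± 0.12, adjusted p = 1.5e-05), ACSS2 held 1687, 1590 and 1838 against 2407, 2188 and 2325 (-0.44 ± 0.07, adjusted p = 3.56e-05), and ACLY held 13854, 13773 and 13005 against 17508, 17275 and 17239 (-0.36 ± 0.07, adjusted p = 0.000109). At 24 h ACSS2 had also been lower, at 1392, 1404 and 1320 against 1925, 1707 and 1664 (-0.36 ± 0.07, adjusted p = 0.000647), whereas ACLY had been higher with both agents (0.36 ± 0.07, adjusted p = 0.000247).

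**Figure D3:**
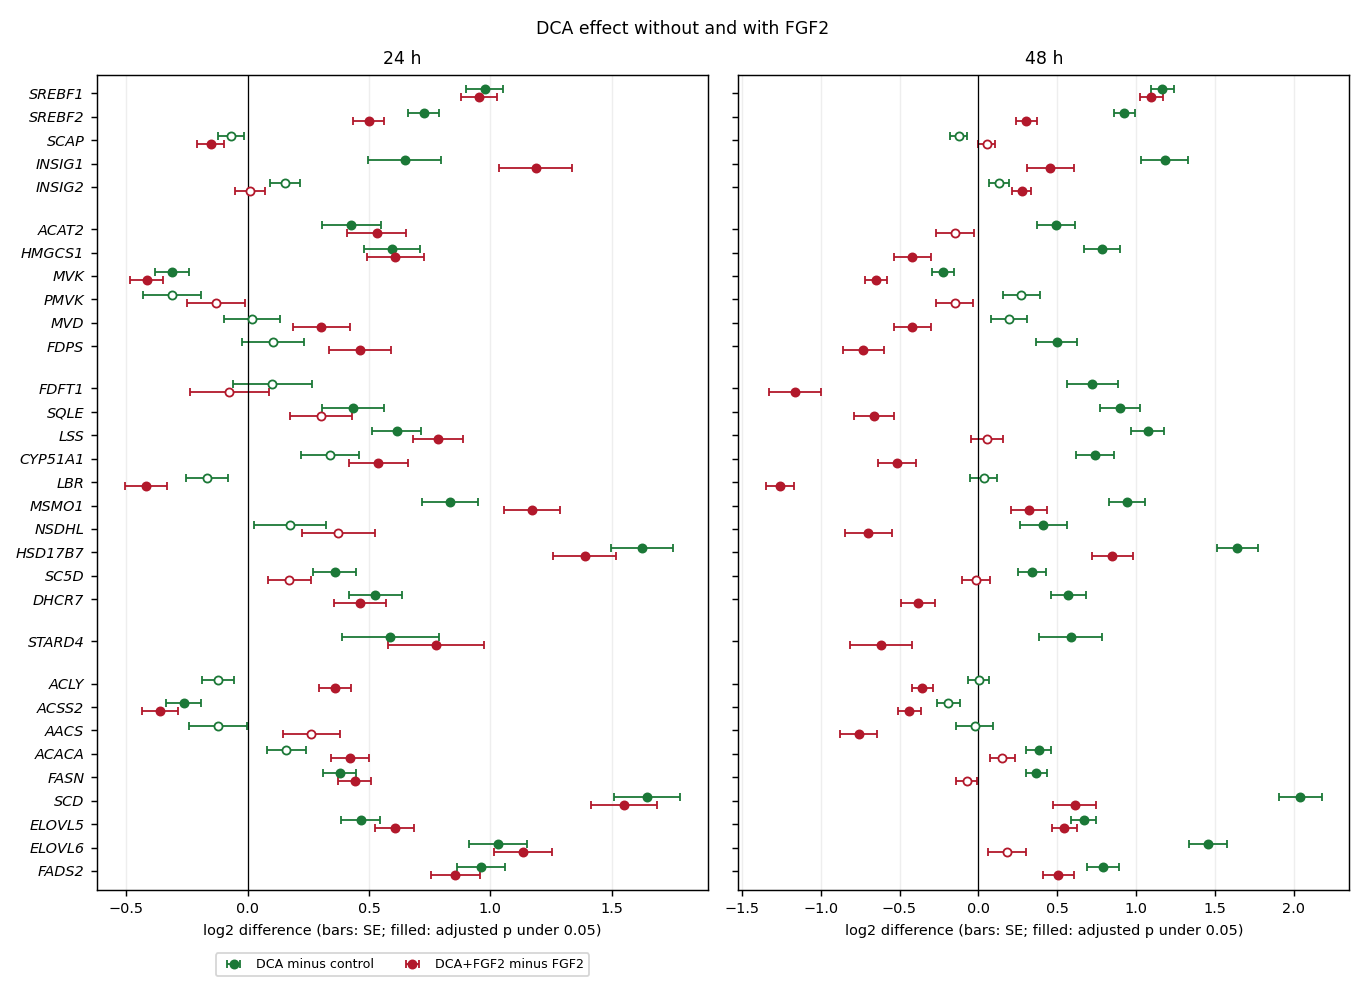
Log2 effect of DCA on each of the 31 genes without FGF2 (green, DCA minus control) and with FGF2 (red, both agents minus FGF2 alone) at 24 h (left) and 48 h (right); bars are the SE of the model and filled points passed the adjusted p threshold of 0.05. At 24 h the effects with and without FGF2 differed past the threshold for ACLY alone, and at 48 h most red points lie to the left of their green partners, down to -1.26 for LBR, while SREBF1 keeps 1.10 against 1.17.

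Whether the effect of DCA depended on FGF2 was tested as the difference between its effect with and without FGF2. A negative difference means that the level with DCA stood lower, relative to its partner group, in the presence of FGF2, whether a rise shrank, turned into a fall or a fall deepened. At 24 h the difference was positive for 1.68% and negative for 1.24% of all genes. A count of 1 member, as found here, is near these shares. The 1 member that passed had a positive difference. This was ACLY, at 10952, 11837 and 11234 in control, 9583, 11210 and 10546 with DCA, 13568, 12390 and 12589 with FGF2 and 15412, 15978 and 18130 with both agents. DCA libraries overlapped control, and libraries with both agents lay above those with FGF2 (0.48 ± 0.09, adjusted p = 0.00688). ACACA had the next smallest p of the fatty acid genes, at 4593, 4970 and 4286 in control, 4986, 5338 and 5121 with DCA, 5392, 4904 and 4974 with FGF2 and 6365, 6973 and 7120 with both agents, and did not pass (adjusted p = 0.228). At 48 h the difference was negative for 23 members and positive for 0, where it was negative for 15.0% and positive for 15.1% of all genes, and the median was -0.64 against 0.01. By role, the negative difference was found in all 10 squalene and post-squalene enzymes, 5 of 6 early mevalonate enzymes, 5 of 9 fatty acid genes, 2 of 5 SREBP genes and STARD4. FDFT1 (-1.89 ± 0.23, adjusted p = 4.07e-06), SQLE (-1.56 ± 0.18, adjusted p = 1.87e-06), SCD (-1.43 ± 0.19, adjusted p = 1.19e-05) and LBR (-1.29 ± 0.12, adjusted p = 2.17e-07) had the largest differences. Their effects of DCA without and with FGF2 were 0.72 and -1.16 for FDFT1, 0.90 and -0.66 for SQLE, 2.04 and 0.61 for SCD, and 0.03 and -1.26 for LBR. The call for SC5D (ENSGALG00000037065), a sterol desaturase (-0.35 ± 0.12, adjusted p = 0.0361), was lost on leaving out any 1 of 7 libraries (adjusted p from 0.0523 to 0.105). Of the 2 SREBP factors, SREBF2 had a smaller effect with FGF2 (-0.62 ± 0.09, adjusted p = 2.88e-05), and SREBF1 had a difference of -0.07 ± 0.11 (adjusted p = 0.671). The factors themselves were not tested against each other. FADS2 (-0.28 ± 0.14, adjusted p = 0.141) and ELOVL5 (-0.13 ± 0.11, adjusted p = 0.449) did not pass either.

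The 2 effects of DCA at 48 h, with and without FGF2, share no library. Of the 22 members that rose without FGF2, 8 also rose when DCA was added to FGF2, namely SREBF1, SREBF2, INSIG1, MSMO1, HSD17B7, SCD, ELOVL5 and FADS2. Another 8 fell, namely HMGCS1, FDPS, FDFT1, SQLE, CYP51A1, NSDHL, DHCR7 and STARD4, so that for these DCA moved the level up from control and down from FGF2. The last 6 were ACAT2, LSS, SC5D, ACACA, FASN and ELOVL6, which did not pass with FGF2. Of all genes that DCA alone raised at 48 h, 64.5% also rose when it was added to FGF2, 9.56% fell and 25.9% did not pass. At 24 h, 15 of the 17 members that rose without FGF2 also rose with it and 0 fell, where 71.9% of all genes that DCA alone raised also rose, 1.00% fell and 27.1% did not pass.

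Genes that remove or redistribute sterol are given beside the synthesis genes. Of all genes, FGF2 raised 15.5% and lowered 14.3% at 24 h, and 26.9% and 27.7% at 48 h. DCA alone raised 10.6% and lowered 9.48% at 24 h, and 16.9% and 17.1% at 48 h. Added to FGF2, DCA raised 18.1% and lowered 17.8% at 24 h, and 25.4% and 27.4% at 48 h. Of 19 genes of cholesterol efflux, LXR signalling and intracellular transport, FGF2 lowered 6 and raised 1 at 24 h and lowered 13 and raised 3 at 48 h, with medians of -0.15 and -0.60. Adding DCA to FGF2 raised 11 and lowered 1 at 24 h and raised 16 and lowered 1 at 48 h, with medians of 0.40 and 0.71. DCA alone raised 6 and lowered 1 at 24 h and raised 4 and lowered 0 at 48 h. The 4 of 19 raised by DCA at 48 h are near the 16.9% of all genes, and the 3 raised by FGF2 at 48 h are below the 26.9%. ABCA1, the pump that exports cholesterol from cells, fell with FGF2 (-1.45 ± 0.15 at 24 h and -1.88 ± 0.15 at 48 h) and was higher with both agents than with FGF2 alone at 24 h (1.35 ± 0.15, adjusted p = 7.64e-07). LPCAT3, an LXR-regulated phospholipid enzyme, rose with DCA at 24 h (0.67 ± 0.06) and 48 h (0.77 ± 0.06, adjusted p = 1.33e-08). OSBPL2, an oxysterol-binding protein, was 1 of the 3 that rose with FGF2 at 48 h and the 1 that fell when DCA was added. It rose with FGF2 at 48 h (1.44 ± 0.07, adjusted p = 7.67e-13) and was lower with both agents (-1.27 ± 0.07, adjusted p = 6.35e-12).

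At 24 h the 4 other lipid lists had medians from -0.11 to 0.13 with FGF2 and from -0.08 to 0.04 with DCA. With FGF2 at 24 h 15.5% of all genes rose and 14.3% fell. Of 23 genes of fatty acid oxidation and PPAR signalling 1 rose and 8 fell then. Of 13 genes that process or sense SREBP 4 rose and 0 fell. Of 27 other fatty acid, NADPH and glycerolipid genes 7 rose and 0 fell. Of 16 genes of the isoprenoid branch and ketone bodies 0 rose and 1 fell. The counts of these lists at 48 h stand against shares of all genes of 26.9% higher and 27.7% lower with FGF2. The shares were 16.9% and 17.1% with DCA, and 25.4% and 27.4% when DCA was added to FGF2. Several counts are near them. Among these are the isoprenoid and ketone body genes with DCA, and the 7 of 27 other fatty acid, NADPH and glycerolipid genes raised by FGF2. Of 13 further genes that process or sense SREBP, 6 rose and 5 fell with FGF2 at 48 h, 5 rose and 2 fell with DCA, and 5 rose and 3 fell when DCA was added to FGF2. SEC24D, a subunit of the vesicle coat that carries cargo out of the endoplasmic reticulum, rose with DCA at 24 h (1.08 ± 0.11, adjusted p = 1.23e-06) and was higher with both agents than with FGF2 alone at 48 h (1.28 ± 0.11, adjusted p = 3.34e-09). Of 23 genes of fatty acid oxidation and PPAR signalling, 3 rose and 12 fell with FGF2 at 48 h, 3 rose and 10 fell with DCA, and 10 rose and 5 fell when DCA was added to FGF2. CPT1A, the gate of fatty acid entry into mitochondria, fell with FGF2 at 48 h (-1.81 ± 0.12, adjusted p = 5.23e-11), and ANGPTL4, a PPAR target, was higher with both agents (2.16 ± 0.12, adjusted p = 1.21e-11). Of 27 other genes of fatty acid, NADPH and glycerolipid synthesis, 7 rose and 14 fell with FGF2, 8 rose and 0 fell with DCA, and 12 rose and 2 fell when DCA was added to FGF2, all at 48 h. LPIN1, a phosphatidate phosphatase, rose with DCA (1.36 ± 0.12, adjusted p = 6.83e-08), and IDH1, a cytosolic source of NADPH, was higher with both agents (1.20 ± 0.06, adjusted p = 1.47e-12). Of 16 genes of the isoprenoid branch and ketone bodies, 5 rose and 6 fell with FGF2, 3 rose and 3 fell with DCA, and 2 rose and 7 fell when DCA was added to FGF2.

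**Figure D4:**
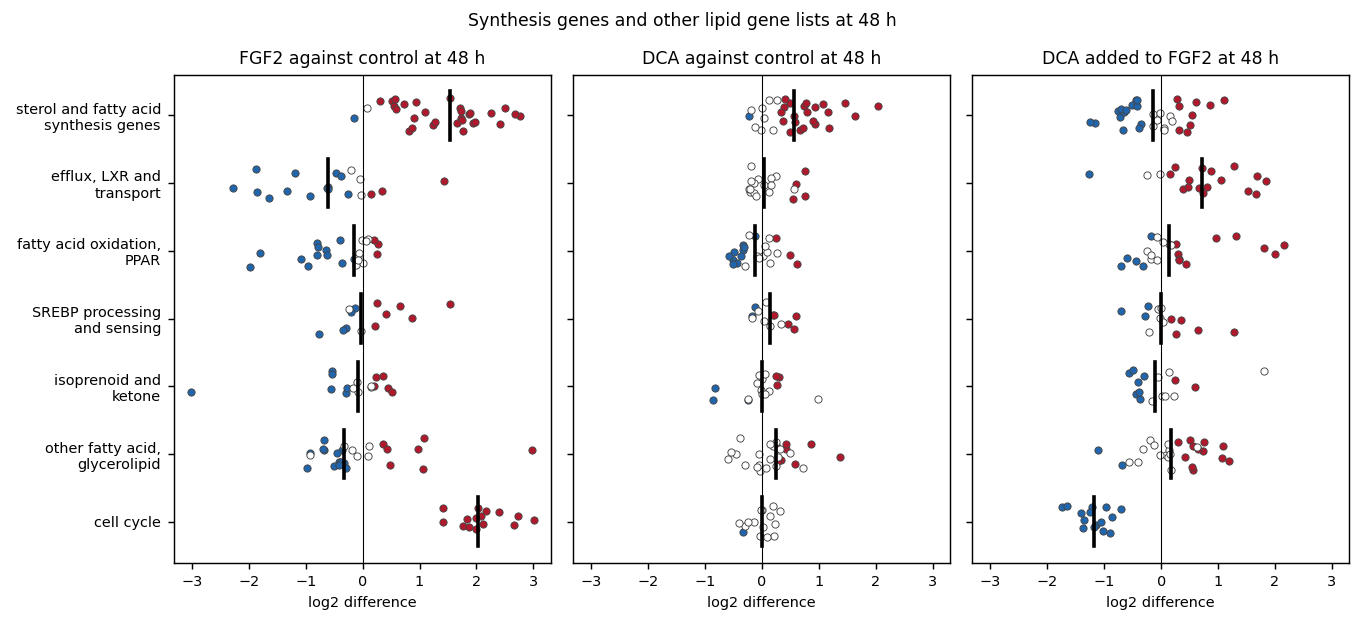
Log2 differences at 48 h of the 31 synthesis genes, 5 other lipid gene lists and a list of 15 cell cycle genes (points; red higher, blue lower, white not past the adjusted p threshold of 0.05; black bars are medians), for FGF2 against control, DCA against control, and both agents against FGF2 alone. The synthesis genes have medians of 1.54, 0.57 and -0.15 and the cell cycle genes 2.04, 0.00 and -1.18.

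Cell division genes and markers of other cells moved beside the synthesis genes. Their counts at 48 h stand against shares of all genes of 26.9% higher and 27.7% lower with FGF2. The shares were 16.9% and 17.1% with DCA, and 25.4% and 27.4% when DCA was added to FGF2. At 24 h they were 15.5% and 14.3%, 10.6% and 9.48%, and 18.1% and 17.8% in turn. Of 15 cell cycle genes all 15 rose with FGF2 at both times, with medians of 0.85 and 2.04, and 14 fell at 24 h and 15 at 48 h when DCA was added to FGF2, with medians of -0.75 and -1.18. DCA alone lowered 5 at 24 h and 1 at 48 h and raised 0, and the 1 of 15 at 48 h is below the 17.1% of all genes. The median summed level of these 15 genes at 48 h was 44896 in control, 42791 with DCA, 190033 with FGF2 and 80655 with both agents. At 48 h the summed mesenchyme markers ran from 328091 to 388016 in control, 232381 to 334743 with DCA, 64238 to 75259 with FGF2 and 163789 to 190257 with both agents, and all 14 fell with FGF2 while 13 were higher with both agents than with FGF2 alone. The summed pigment markers at 48 h ran from 205335 to 226095 in control, 77557 to 145019 with DCA, 49544 to 70342 with FGF2 and 42776 to 47590 with both agents. Such a sum does not tell how many of the 10 pigment markers fell. At 24 h FGF2 lowered 4 of the 10 and raised 1. All 10 retinal progenitor markers rose with FGF2 at 48 h and 8 of them fell when DCA was added. Of 9 blood and macrophage markers all 9 fell with FGF2 and 7 with DCA at 48 h, and of 9 endothelial markers all 9 and 7. Of 6 lens and surface ectoderm markers tested, 1 rose and 2 fell with FGF2, and 2 rose and 1 fell with DCA. With only 6 genes these counts cannot be told from the shares of all genes. At 24 h, FGF2 lowered 11 of the mesenchyme markers and raised 9 of the progenitor markers, and 9 mesenchyme markers were higher with both agents than with FGF2 alone. The part of cell cycle activity or of the cell makeup of the explants in the changes of the synthesis genes was not tested.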

How the data were processed

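The deposited table holds 1 value per gene and library, a read count divided by the authors' size factor for that library, and such values are treated here as a normalized signal. The submitters' processing notes list DESeq2 1.34.0, StringTie 2.1.4, STAR 2.7.5b and Trim Galore 0.6.4 and name GRCg6a as the build, and libraries were directional poly(A) libraries per the labels' protocols. Counter and strand settings were not stated, so reads of overlapping genes or close paralogs remain uncertain. Each column was made of steps of 1 read, so reads were recovered (100% of values whole to within 0.001) and summed to give depth. As gene lengths were not used, levels were compared between libraries and not between genes.

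The test used log2(normalized count + 1) and covered 15001 genes whose mean reached 10. Differences on this scale understate those of low genes. A limma-trend model (limma 3.58.1, R 4.3.3) with 8 group means and all 24 libraries gave 11 comparisons, with Benjamini-Hochberg adjustment over all genes tested and calls at an adjusted p under 0.05. The p-values measure the spread between pools of explants. The members and lists were chosen with earlier results of these data known, and lists are described by counts and medians with no test of their own. Per-library values are given for the 2 members with the smallest p in each role group and comparison, and for SREBF1, SREBF2, INSIG1, INSIG2, SQLE, HMGCS1, SCD and FASN. They are also given for members called against most of their role group in a comparison of treatments at the same time. Not every uncalled member that went against its role group has them. Non-member genes named are among the 2 with the smallest p of their list in a comparison. Alternatives were pseudocounts of 0.5 and 5, no filter, a mean of at least 100, TMM factors, median centring, a replicate block, a fit to the groups compared, edgeR 4.0.16 and DESeq2 1.42.0 on the recovered reads, and leaving out libraries. The number of sample columns mapped to no sample was 0. A planned search of promoters for motifs was not made.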

Additional observations from a re-analysis of the deposited data

Results flagged for a closer look

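The members below stood out because a tested effect differed between conditions or times in the limma model. At 24 h the log2 effect of DCA was higher with FGF2 than without it for ACLY, at 0.48. This was 1 member, near the 1.68% of all genes that were higher. At 48 h the signed effect was lower with FGF2 for 23 members, where it was lower for 15.0% of all genes. MVK was among them, and its fall with DCA was deeper with FGF2. The 12 largest differences, as the log2 effect with FGF2 minus that without, were FDFT1 at -1.89, SQLE at -1.56, SCD at -1.43, LBR at -1.29, ELOVL6 at -1.28, CYP51A1 at -1.25, FDPS at -1.23, STARD4 at -1.20, HMGCS1 at -1.20, NSDHL at -1.11, LSS at -1.02 and DHCR7 at -0.95. The other 11 were HSD17B7 at -0.79, AACS at -0.74, INSIG1 at -0.73, ACAT2 at -0.64, SREBF2 at -0.62, MSMO1 at -0.62, MVD at -0.61, FASN at -0.44, MVK at -0.43, ACLY at -0.36 and SC5D at -0.35. The SC5D call was lost on leaving out any 1 of 7 libraries.

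The signed log2 effect of FGF2 was higher at 48 h than at 24 h for 24 members, where it was higher for 14.7% of all genes. The 12 largest differences, 48 h minus 24 h, were NSDHL at 1.76, FDFT1 at 1.49, CYP51A1 at 1.48, FDPS at 1.44, SQLE at 1.26, LSS at 1.25, SCD at 1.24, ELOVL6 at 1.22, LBR at 1.21, MSMO1 at 1.16, HSD17B7 at 1.14 and AACS at 1.11. The next 12 were DHCR7 at 1.03, MVD at 1.01, STARD4 at 0.98, INSIG1 at 0.90, HMGCS1 at 0.79, ACLY at 0.72, ACAT2 at 0.69, SREBF2 at 0.61, MVK at 0.59, PMVK at 0.49, FASN at 0.45 and ACACA at 0.42. The effect on INSIG2 was lower at 48 h, at -0.48, where it was lower for 15.4% of all genes. The signed log2 effect of DCA was higher at 48 h than at 24 h for PMVK, at 0.58. This was 1 member, near the 2.67% of all genes that were higher. The PMVK calls were lost on leaving out any 1 of 5 libraries for FGF2 and any 1 of 10 for DCA. The ACACA call was lost without both deepest libraries together. The FGF2 differences share the control libraries of both times, in which 22 members fell between 24 h and 48 h. Of all genes 7.30% fell there.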

How the results depend on the processing

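No member's log2 difference reversed its direction where it was called, under any alternative run. Over the alternatives that left out no single library, 3693 of the members' values kept their side of the threshold, 22 newly passed it and 36 no longer did; on leaving out 1 library these were 2666, 23 and 101. The count of members called moved by over 1.5 times in 2 comparisons. For control explants at 48 h against 24 h, 24 were called, and 14 to 24 on leaving out 1 library, the lowest without the first control library at 24 h; the cause was not tested. For the effect of DCA at 48 h against that at 24 h, 1 was called, and 0 with no filter on the mean, 0 with the replicate block, 0 with only the groups compared, 0 without both deepest libraries, 2 with DESeq2, and 0 to 2 on leaving out 1 library; the cause was not tested. Libraries with the same replicate number shared little deviation from their group means over all genes tested, with 84 correlations from -0.0917 to 0.0974. These values cannot show whether such libraries had a common origin. With the replicate block 26, 30, 19 and 23 members were called for FGF2 and DCA against control at 24 and 48 h in turn, 25 and 23 for DCA added to FGF2, 1 and 23 for the interaction, 24 for control over time and 25 for the FGF2 effect over time. No scaling moved the median of all genes by over 0.1. Depth was at least 32.8 in units of 1000000 reads, and 3 libraries a group limit small differences.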
